A study of Homo sapiens with 11 samples.

Results

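The nuclear-encoded subunits of oxidative phosphorylation were followed in 2 human lung cancer cell lines in which METTL3 was knocked down. Members were the rows of both RNA-seq tables whose symbol names a subunit of complexes I to V. For complex I these were NDUFA, NDUFB, NDUFC, NDUFS or NDUFV followed by a number, which leaves out NDUFAB1. For the others they were SDHA to SDHD (complex II), UQCR and CYC1 (complex III), COX4 to COX8 (complex IV) and ATP5 (complex V). Of 93 rows with such a name, 3 antisense genes, 2 pseudogenes and 2 genes listed for a single line were dropped. This left 86 members of the 19806 genes that both tables list: 36 of complex I, 4 of complex II, 10 of complex III, 16 of complex IV, 16 of complex V and 4 genes named after these families that are not counted to a complex here. NDUFA4 and NDUFA4L2, named for complex I, are counted with complex IV, to which the protein is now assigned. All 86 symbols matched a gene in RefSeq, and current names are given where they differ. The subunits that mitochondrial DNA encodes were not analysed here.

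The study sequenced poly(A) RNA from A549 cells, a lung adenocarcinoma line, and from H1299 cells, a non-small-cell lung cancer line. Each line gave 2 libraries of cells with a short hairpin RNA against METTL3 (shMETTL3, numbered 1 and 2) and 1 library of cells with a hairpin against GFP (shGFP), a jellyfish protein that human cells lack, as the control. METTL3 is the catalytic subunit of the enzyme that writes N6-methyladenosine (m6A) into mRNA, and the series also holds m6A immunoprecipitations of both lines, which were not used here. All 6 RNA libraries come from cells in the same medium with serum and antibiotics. The sources used here do not give the vector, the hairpin sequences, the time after knockdown or whether the cells were clones. Libraries 1 and 2 could be different hairpins or repeats of the same hairpin, and separate cultures are not stated. The p-values below measure only how much these libraries vary.

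Oxidative phosphorylation takes place in the inner mitochondrial membrane. Complex I passes electrons from NADH, and complex II from succinate, to ubiquinone; complex III passes them on to cytochrome c, and complex IV to oxygen. Complexes I, III and IV pump protons, and complex V, the ATP synthase, lets the protons flow back and makes ATP. Each complex except complex II mixes subunits encoded in the nucleus with subunits encoded in mitochondrial DNA. The nuclear genes are known to share binding sites for the transcription factors NRF1, the ETS factor GABP (NRF2) and YY1, and the coactivator family of PPARGC1A is known to raise many of them together. METTL3 and its mark are known mainly for effects on the splicing, stability and translation of mRNA.

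The deposited values are reads per gene divided by 1 factor per library, called scaled reads below. Multiplied back, A549 libraries held 14447379 reads in genes for shMETTL3 1, 16504759 for shMETTL3 2 and 19966206 for shGFP. H1299 libraries held 23099169 for shMETTL3 1, 25443078 for shMETTL3 2 and 26351309 for shGFP. The members with a mean of at least 20 scaled reads in both lines, 80 of the 86, rested on 89 to 32234 reads per library, with a median of 1481. The ribosomal RNA precursor RNA45S5 took 0.208 to 0.284% of the A549 values and 20.5 to 25.4% of the H1299 values. METTL3 itself stood at 231 and 232 scaled reads in A549 shMETTL3 libraries 1 and 2, against 557 in A549 shGFP. In H1299 it stood at 123 and 100.2 in shMETTL3, against 271 in shGFP. All 4 knockdown libraries thus carried less METTL3 RNA than their control, with log2 changes by limma of -1.26 (SE 0.19) in A549 and -1.28 (SE 0.25) in H1299. Of the marker genes listed for each cell type, 4 of 5 epithelial and 3 of 3 mesenchymal genes reached a mean of 1 scaled read in both lines, as did 1 of 4 leukocyte, 1 of 3 endothelial, 1 of 3 fibroblast and 0 of 4 striated muscle genes. KRT8, a keratin of epithelial cells, stood at 12213 and 8420 in A549 shMETTL3, against 8906 in shGFP, while in H1299 it stood at 189 and 113 in shMETTL3, against 161 in shGFP. EPCAM, a membrane protein of epithelial cells, stood at 75.4 and 14.1 in A549 shMETTL3, against 22.6 in shGFP, and was at 0.4 and 0 in H1299 shMETTL3, against 0.4 in shGFP. Of the other listed epithelial genes in A549, KRT18 and CDH1 were also highest in shMETTL3 1, while KRT7 was lowest in it. KRT7 stood at 15220 and 16843 in A549 shMETTL3, against 17021 in shGFP. The A549 shMETTL3 1 library stood apart in FN1, which encodes the matrix protein fibronectin, at 5894, against 532 in shMETTL3 2 and 882 in shGFP. In H1299 the shMETTL3 1 library was also the high one in FN1, at 40, against 16 in shMETTL3 2 and 17.1 in shGFP. VIM, a mesenchymal filament protein, was lowest in shMETTL3 1 in A549 and highest in it in H1299, at 6975 and 7439 in A549 shMETTL3, against 7562 in shGFP, and at 17428 and 13603 in H1299 shMETTL3, against 14995 in shGFP. The fibroblast marker COL1A1, a collagen, was above the control in all 4 knockdown libraries, at 91.8 and 72.2 in A549 shMETTL3, against 59.7 in shGFP, and at 30 and 32.2 in H1299 shMETTL3, against 12.5 in shGFP, while COL1A2 was at 0 in every knockdown library. The part of these differences in the results below was not tested, and each result is therefore given for each library.

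No member passed the test in any comparison. In A549, where 0.0% of 17454 genes passed an adjusted p of 0.05 by limma, 0 of the 85 members tested passed, and 0 had an unadjusted p under 0.05, against 0.659% of all genes. In H1299 the counts were 0 of 85 adjusted, against 0.0% of 16470 genes, and 1 unadjusted, against 0.601%. Over both lines together they were 0 adjusted, against 0.0% of 15546 genes, and 1 unadjusted, against 2.41%. The 1 member in both of these counts is UQCR10. edgeR's quasi-likelihood test on the reads of A549 called 0 of 17454 genes, and its smallest unadjusted p for a member was 0.148. A member not tested, COX8C, was read 0 times in every shMETTL3 library and stood at 0.26 and 0.4 in A549 and H1299 shGFP. Each line has 1 control library, which leaves 1 residual degree of freedom, so that limma's intervals also draw on the spread of all genes. For members with a mean of at least 20 scaled reads in both lines, the 95% interval of the log2 change was taken at the median. It reached 0.52 to either side in A549 and 0.55 in H1299. Over both lines it reached 0.28 to either side. METTL3 itself did not pass over both lines (log2 -1.27, adjusted p = 0.139 by limma), so that a change of a member could be missed. In bulk RNA, fewer cells of a type and less RNA per cell cannot be told apart.

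What the libraries show is a small offset of opposite sign in the lines. Both differences in a line share the same shGFP library, so agreement between libraries 1 and 2 is not independent of that control. The median member stood 0.08 and 0.03 log2 units below shGFP in A549 shMETTL3 libraries 1 and 2 (medians of -0.08 and -0.03), and 0.19 and 0.08 above shGFP in H1299. The same medians over all 15546 genes tested in both lines were 0.01 and -0.01 in A549, and 0.09 and -0.04 in H1299. In A549, 39 of 85 members were lower than shGFP in both shMETTL3 libraries and 17 were higher in both, against 27.2% of all genes on either side. In H1299, 10 were lower in both and 48 higher in both, against 24.5 and 30.6% of all genes. With values centred on the median of all genes or rescaled without RNA45S5, 34 to 43 members were lower and 13 to 20 higher in A549. In H1299, 7 to 12 were then lower and 40 to 51 higher, so the side with more members stayed the same in each line. The shares of all genes under these scalings are not given here. Lower in both A549 and higher in both H1299 shMETTL3 libraries were 18 members, against 6.58% of all genes, and 0 members had the reverse pattern, against 5.11%. On the same side of shGFP in all 4 shMETTL3 libraries were 10 members that were lower, against 9.05% of all genes, and 13 that were higher, against 10.5%. Rescaled without RNA45S5, these were 6 lower and 16 higher, again without shares of all genes under that scaling. Among the 80 members with a mean of at least 20 scaled reads in both lines, none was beyond 1.5-fold in either A549 library. In H1299, 3 were beyond it in library 1 and 1 in library 2, and UQCR10 was the only one in both. The share of all genes beyond 1.5-fold is not given here, so whether these counts are low cannot be said. The median absolute difference of the 85 members tested was 0.11 and 0.09 in A549 libraries 1 and 2, and 0.20 and 0.11 in H1299. Over all 15546 genes, not matched to the members in level, it was 0.20 and 0.16 in A549, and 0.20 and 0.18 in H1299.

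**Figure D1:**
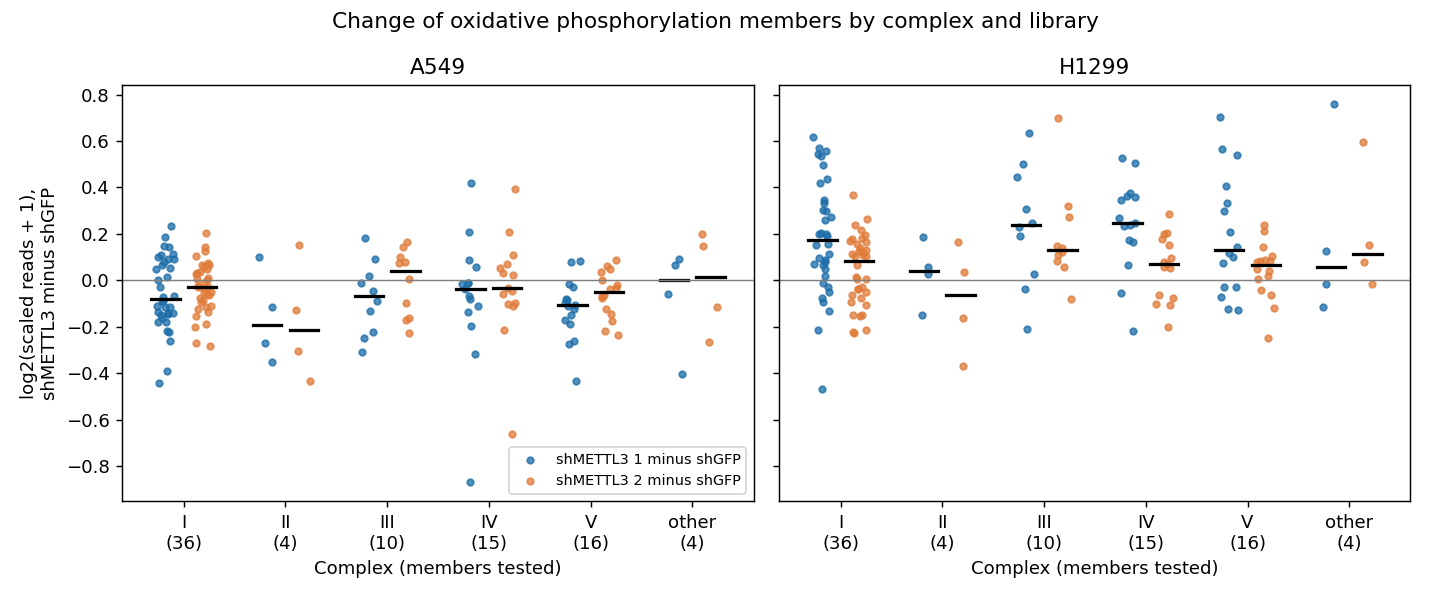
Difference of log2(scaled reads + 1) between each shMETTL3 library and the shGFP library of its line, for the 85 members tested, by complex (points are genes, bars are medians, numbers in brackets are members). In A549 the medians of complexes I, II, IV and V lie below 0 in both libraries, and in H1299 those of complexes I, III, IV and V lie above 0 in both.

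The promoters of a few members that the results turn on hold letters that match motifs of the factors named above. Among the 68 members with a promoter in the RefSeq table (GRCh38.p14, 250 bases before the start to 50 after it), 39, or 57.4%, held at least 1 of 3 motifs searched on both strands, against 17.9% of 27305 promoters. The NRF1 motif (GCGC, 1 base of any kind, T, then GCGC) was in 16 (23.5%, against 6.28% of all promoters), the ETS motif CCGGAAG in 19 (27.9%, against 10.7%) and the YY1 motif AANATGGCG in 16 (23.5%, against 3.37%). The 27305 promoters outnumber the 19806 genes that both RNA tables list, and were not matched to the members in expression or base content. Matches are descriptions of letters, not of binding. Below are the 150 bases before the start, with 2 more for UQCR10 because its match crosses the start, written along the strand of the gene, with NRF1 or ETS motifs in capitals. UQCR10 is shown as the member furthest above shGFP over both lines, SDHB and SDHD as the complex subunits furthest below it in A549 among those with a mean of at least 20 scaled reads, and NDUFA3 as a member above shGFP in all 4 shMETTL3 libraries.
UQCR10, chr22:29767219-29767370, plus strand: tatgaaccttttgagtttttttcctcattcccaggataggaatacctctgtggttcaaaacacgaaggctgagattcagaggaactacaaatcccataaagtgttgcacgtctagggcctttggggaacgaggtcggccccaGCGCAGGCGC
SDHB, chr1:17054033-17054182, minus strand: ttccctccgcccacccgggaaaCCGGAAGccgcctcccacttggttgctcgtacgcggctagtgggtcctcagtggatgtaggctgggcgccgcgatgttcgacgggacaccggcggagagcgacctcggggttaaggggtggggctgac
SDHD, chr11:112086723-112086872, plus strand: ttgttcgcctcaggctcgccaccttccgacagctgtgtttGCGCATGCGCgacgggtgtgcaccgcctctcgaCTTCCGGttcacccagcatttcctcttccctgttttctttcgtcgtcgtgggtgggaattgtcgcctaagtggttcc
NDUFA3, chr19:54102705-54102854, plus strand: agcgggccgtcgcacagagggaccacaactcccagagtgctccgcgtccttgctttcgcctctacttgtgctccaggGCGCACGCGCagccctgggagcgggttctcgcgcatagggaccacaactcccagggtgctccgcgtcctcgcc
UQCR10 and SDHB also held the YY1 motif after the start, outside these bases, and NDUFA3 held a second NRF1 motif further upstream. NDUFA3 was chosen among members with a motif to show. NDUFA2 and NDUFB1, which were also above shGFP in all 4 libraries and had slightly higher changes over both lines, hold none of the 3 motifs in this window.

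Complex I, which takes electrons from NADH, has 7 nuclear core subunits that carry the flavin and the iron-sulfur clusters, and 29 accessory subunits among the members. The split by role was made after values had been seen and is a description. The core subunits had medians of -0.14 and -0.05 in A549 and 0.05 and -0.06 in H1299. In A549, 6 of the 7 were lower than shGFP in both libraries, against 27.2% of all genes. NDUFS7, which holds the last iron-sulfur cluster before ubiquinone, stood at 191 and 179.7 in A549 shMETTL3, against 217 in shGFP. In H1299 it stood at 299 and 385 in shMETTL3, against 415 in shGFP. NDUFS7 was lower in all 4 shMETTL3 libraries, with the lowest change of any member over both lines (log2 -0.26, SE 0.13, adjusted p = 1 by limma). NDUFV1, which binds NADH and the flavin, stood at 422 and 461 in A549 shMETTL3, against 465 in shGFP, and at 535 and 541 in H1299 shMETTL3, against 570.4 in shGFP. Its iron-sulfur partner NDUFV2 was also lower in all 4 libraries, at a log2 change over both lines of -0.07 (SE 0.10). NDUFS1, the largest of the core subunits, was on the other side, with 172.5 and 177 in A549 shMETTL3, against 171 in shGFP, and 98.7 and 94.8 in H1299 shMETTL3, against 94.3 in shGFP. The differences of NDUFV1 and NDUFS1 are small beside the interval of a single member.

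The accessory subunits of complex I had medians of -0.07 and -0.02 in A549 and 0.20 and 0.11 in H1299. In H1299, 16 of 29 were higher than shGFP in both libraries and 1 was lower in both, against 30.6 and 24.5% of all genes. In A549, 9 were higher and 10 lower in both, against 27.2% of all genes on either side. NDUFA2, a subunit of the matrix arm, stood at 124 and 122 in A549 shMETTL3, against 112 in shGFP. In H1299 it stood at 79.8 and 57.6 in shMETTL3, against 53.5 in shGFP, so that the groups did not overlap in either line while library 2 of H1299 lay close to its control. NDUFB1, of the membrane arm, stood at 357.5 and 356 in A549 shMETTL3, against 338 in shGFP, and at 216 and 175 in H1299 shMETTL3, against 148 in shGFP. NDUFA3, whose promoter is shown above, stood at 277.5 and 269 in A549 shMETTL3, against 243 in shGFP, and at 186 and 156 in H1299 shMETTL3, against 139 in shGFP. Over both lines the log2 changes were 0.24 (SE 0.17) for NDUFA2, 0.23 (SE 0.14) for NDUFB1 and 0.23 (SE 0.13) for NDUFA3, none of which passed the test. NDUFA11, also of the membrane arm, had the highest change of complex I in A549, with 174 and 170.0 in shMETTL3, against 148 in shGFP (log2 0.22, 95% interval -0.32 to 0.75). In H1299 NDUFA11 stood at 238 and 209 in shMETTL3, against 207 in shGFP. NDUFC2, of the membrane arm, stood at 193 and 182 in A549 shMETTL3, against 178 in shGFP, and at 76 and 57.6 in H1299 shMETTL3, against 53.5 in shGFP. It overlaps the readthrough gene NDUFC2-KCTD14, and the sources used here do not say how the authors divided reads between them.

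Other accessory subunits were placed differently in the lines. NDUFB3, of the membrane arm, stood at 202 and 196 in A549 shMETTL3, against 224 in shGFP. In H1299 it stood at 80.2 and 56.8 in shMETTL3, against 52 in shGFP. Both A549 libraries were therefore below the control and both H1299 libraries above it, the larger gap being in H1299 library 1. NDUFA1, a membrane-arm subunit needed for assembly, had the same placing, with 761 and 821 in A549 shMETTL3, against 838 in shGFP, and 470.4 and 366 in H1299 shMETTL3, against 323 in shGFP. NDUFB6 stood at 112 and 123 in A549 shMETTL3, against 126 in shGFP, and at 44 and 33.4 in H1299 shMETTL3, against 29.6 in shGFP. NDUFA5, a matrix-arm subunit of low level, stood at 26.4 and 35.6 in A549 shMETTL3, against 36.3 in shGFP, and at 17.6 and 18.6 in H1299 shMETTL3, against 15.3 in shGFP. NDUFA1, NDUFB6 and NDUFA5 were thus all below shGFP in both A549 libraries and above it in both H1299 libraries. NDUFS6, a zinc-binding subunit, was the accessory subunit lower in all 4 shMETTL3 libraries, with 348 and 337 in A549, against 369.7 in shGFP, and 599.8 and 528 in H1299, against 613 in shGFP. Its log2 change over both lines was -0.12 (SE 0.11, adjusted p = 1 by limma). The other accessory subunits lay between -0.20 and 0.28 in the lines taken singly.

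Complex II, succinate dehydrogenase, is wholly encoded in the nucleus and also works in the citric acid cycle. SDHA carries the flavin that oxidises succinate, SDHB carries the iron-sulfur clusters, and SDHC and SDHD anchor both in the membrane. SDHA stood at 502 and 498 in A549 shMETTL3, against 544 in shGFP, and at 400.0 and 397 in H1299 shMETTL3, against 444 in shGFP. SDHA, often used as a reference gene, was thus lower in all 4 knockdown libraries, by a log2 change over both lines of -0.14 (SE 0.10, adjusted p = 1 by limma). SDHB stood at 573 and 593 in A549 shMETTL3, against 732 in shGFP, and at 672 and 677 in H1299 shMETTL3, against 659.6 in shGFP. The 2 A549 libraries lay close together below the control (log2 -0.33, 95% interval -0.82 to 0.16), while in H1299 the change was 0.03 and turned to -0.0076 with median centring. SDHC stood at 177 and 183 in A549 shMETTL3, against 165 in shGFP, and at 67.6 and 72.8 in H1299 shMETTL3, against 64.9 in shGFP, above the control in all 4 libraries. SDHD stood at 81.1 and 72.2 in A549 shMETTL3, against 97.9 in shGFP, the lowest change in that line of any member with a mean of at least 20 scaled reads (log2 -0.35, SE 0.23). In H1299 SDHD stood at 63.3 and 42.8 in shMETTL3, against 55.5 in shGFP: library 1 lay above the control and library 2 below it, and the log2 change of -0.09 became 0.19 without library 2 and -0.37 without library 1. In A549, then, SDHA, SDHB and SDHD were below shGFP in both libraries and SDHC above it in both.

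**Figure D2:**
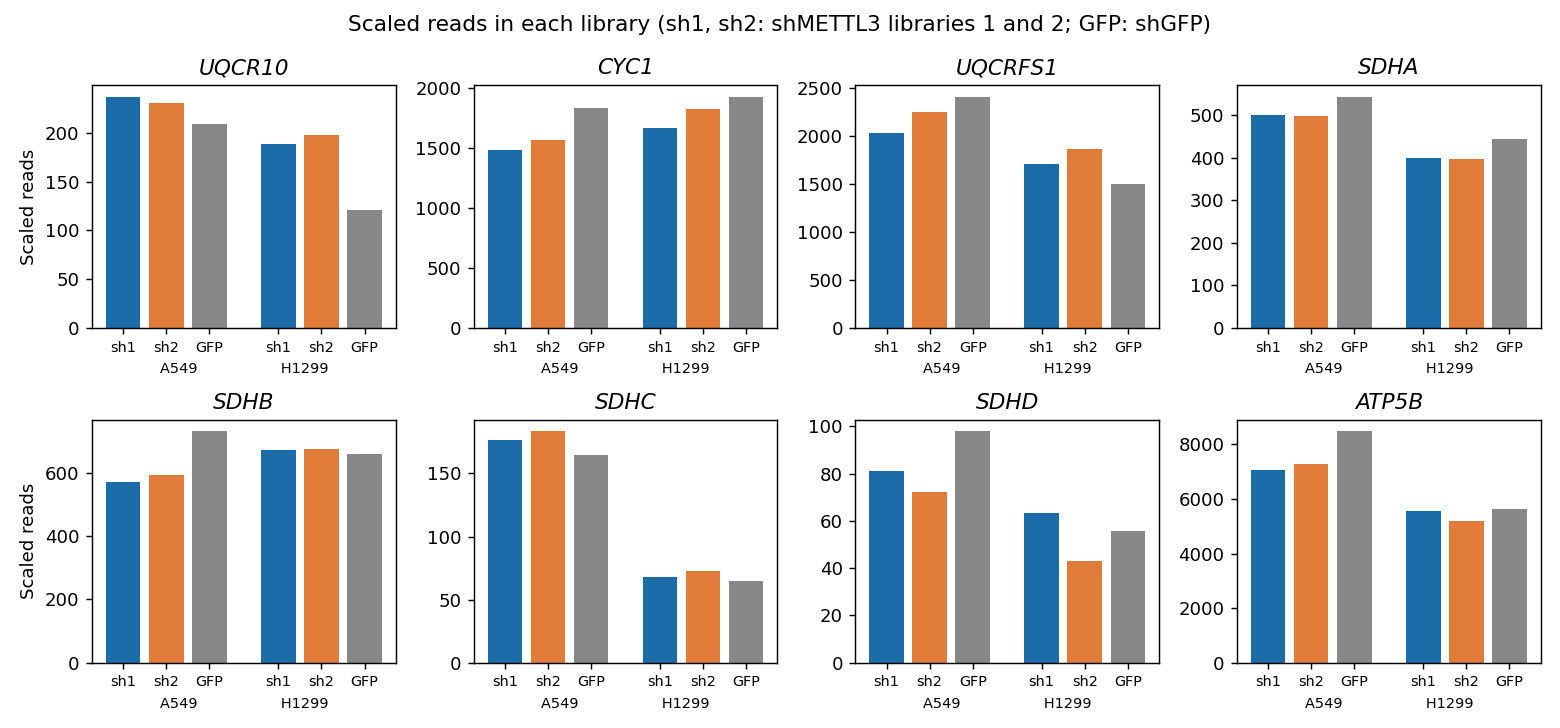
Scaled reads in each library for 8 members of complexes II, III and V, with shMETTL3 libraries 1 and 2 left of shGFP in each line (1 bar per library, no error bars because each bar is 1 library, values comparable within a line only). UQCR10 reaches 189 and 198 in H1299 shMETTL3, against 121 in shGFP, and CYC1, SDHA and ATP5B are below shGFP in all 4 shMETTL3 libraries.

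Complex III, which moves electrons from ubiquinol to cytochrome c, had medians of -0.07 and 0.04 in A549 and 0.24 and 0.13 in H1299. UQCR10, a small subunit next to cytochrome c1, stood at 237.5 and 231 in A549 shMETTL3, against 209 in shGFP. In H1299 it stood at 189 and 198 in shMETTL3, against 121 in shGFP. The H1299 libraries 1 and 2 stand close to each other and apart from the control, whereas the A549 libraries lie nearer to it. By limma the log2 change was 0.67 in H1299 (SE 0.23, 95% interval 0.10 to 1.23, unadjusted p = 0.0287, adjusted p = 1), 0.16 in A549 (SE 0.19) and 0.42 over both lines (SE 0.14, unadjusted p = 0.0203, adjusted p = 1). Before adjustment over all genes UQCR10 was the 1 member under 0.05 in these comparisons, and it did not pass after it. UQCRB, which lies near the site of ubiquinone, stood at 270.4 and 255 in A549 shMETTL3, against 254 in shGFP, and at 232 and 173 in H1299 shMETTL3, against 163 in shGFP. UQCR11, another small subunit, stood at 496 and 550.0 in A549 shMETTL3, against 489.7 in shGFP, and at 664 and 578 in H1299 shMETTL3, against 535.5 in shGFP. All 6 small subunits were higher than shGFP in both H1299 libraries, against 30.6% of all genes. UQCRH, the hinge protein, and UQCRHL, a near-identical copy, may share reads, and their H1299 changes of 0.19 and 0.36 are uncertain for that reason.

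The 4 core and catalytic subunits of complex III were all lower than shGFP in both A549 libraries, against 27.2% of all genes. CYC1, which carries the heme of cytochrome c1, stood at 1481 and 1569 in A549 shMETTL3, against 1837 in shGFP, and at 1666 and 1823 in H1299 shMETTL3, against 1929 in shGFP. It was lower in all 4 libraries (log2 over both lines -0.21, SE 0.10, 95% interval -0.45 to 0.03, adjusted p = 1 by limma). UQCRFS1, the Rieske iron-sulfur protein, stood at 2036 and 2257 in A549 shMETTL3, against 2416 in shGFP, and at 1709 and 1869 in H1299 shMETTL3, against 1498 in shGFP. It was therefore below the control in A549 and above it in H1299, as was the core protein UQCRC2, at log2 changes of -0.11 and 0.07. The core protein UQCRC1 had changes of -0.13 in A549 and 0.01 in H1299.

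Complex IV, cytochrome c oxidase, had medians of -0.04 and -0.03 in A549 and 0.25 and 0.07 in H1299. Of its 15 members tested, 5 were lower and 1 higher in both A549 libraries, against 27.2% of all genes on either side. In H1299, 1 was lower and 9 higher in both libraries, against 24.5 and 30.6% of all genes. By limma the A549 median of -0.02 became 0.0057 when values were rescaled without RNA45S5. COX5A, a subunit on the matrix side, was the 1 lower in all 4 shMETTL3 libraries, with 978 and 1045 in A549, against 1122 in shGFP, and 489 and 539 in H1299, against 569 in shGFP. COX6C, a membrane subunit, stood at 660.4 and 689 in A549 shMETTL3, against 678 in shGFP, and at 302 and 256 in H1299 shMETTL3, against 209.8 in shGFP. Both H1299 libraries were above the control for COX6C (log2 0.41, 95% interval -0.17 to 0.98), the highest change of complex IV there, and the A549 libraries lay on either side of it. COX4I1, the common form of subunit IV, stood at 1736 and 1902 in A549 shMETTL3, against 1836 in shGFP, and at 2144 and 1982 in H1299 shMETTL3, against 1912.5 in shGFP. COX7A2L, known for joining complexes III and IV in supercomplexes, had changes of 0.05 in A549 and 0.30 in H1299.

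Several subunits of complex IV exist as tissue isoforms. COX7A2, the widespread form, stood at 340.4 and 272.5 in A549 shMETTL3, against 295 in shGFP, and at 199.8 and 149 in H1299 shMETTL3, against 156 in shGFP. COX7A1, the form of heart and skeletal muscle, stood at 1.07 and 0.63 in A549 shMETTL3, against 1.58 in shGFP, and at 8.2 and 7.2 in H1299 shMETTL3, against 7.8 in shGFP. For COX7A2 library 1 was the high one in both lines, and COX7A1 stayed near the filter on low values in A549. NDUFA4, now COXFA4, stood at 1075 and 1135 in A549 shMETTL3, against 1183 in shGFP, and at 225 and 269 in H1299 shMETTL3, against 234 in shGFP. Its hypoxia-induced relative NDUFA4L2, now COXFA4L2, had few reads, at 2.14 and 5.63 in A549 shMETTL3, against 4.74 in shGFP, and at 10.7 and 7 in H1299 shMETTL3, against 8.2 in shGFP. Both A549 libraries were below the control for NDUFA4, while the H1299 libraries lay on either side of it for both genes. COX6B2, a form known from testis and some cancers, stood at 23.9 and 23.4 in A549 shMETTL3, against 17.6 in shGFP, the highest change of complex IV in A549 (log2 0.41, 95% interval -0.41 to 1.22). In H1299 COX6B2 stood at 20.9 and 17 in shMETTL3, against 18.4 in shGFP, on either side of the control. The widespread forms COX6A1, COX6B1 and COX8A had changes of 0.03, -0.03 and -0.11 in A549 and of 0.27, 0.15 and 0.19 in H1299. COX4I2 was listed for H1299 alone, at 0 and 0 in shMETTL3 and 0.2 in shGFP, and COX6A2 was not analysed here.

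Complex V, the ATP synthase, had medians of -0.11 and -0.05 in A549 and 0.13 and 0.07 in H1299. In A549, 10 of 16 members were lower than shGFP in both libraries and 1 was higher in both. Over all genes, 27.2% lay on either side. In H1299, 2 were lower and 9 higher in both, against 24.5 and 30.6% of all genes. ATP5B (now ATP5F1B), the catalytic beta subunit of the F1 head, stood at 7076 and 7294 in A549 shMETTL3, against 8483 in shGFP, and at 5543 and 5195 in H1299 shMETTL3, against 5647 in shGFP. It was lower in all 4 libraries (log2 over both lines -0.16, SE 0.11, adjusted p = 1 by limma). The alpha subunit ATP5A1 (now ATP5F1A), its partner in the head, was below shGFP in both A549 libraries and above it in both H1299 libraries, at log2 changes of -0.18 and 0.11. ATP5E (now ATP5F1E), the small epsilon subunit, stood at 485 and 446 in A549 shMETTL3, against 459 in shGFP, and at 357 and 231 in H1299 shMETTL3, against 219 in shGFP. In H1299 its distance from the control came mostly from library 1. ATP5G3 (now ATP5MC3), 1 of 3 genes for the same c-ring protein, stood at 619 and 580.0 in A549 shMETTL3, against 654 in shGFP, and at 228 and 229 in H1299 shMETTL3, against 239.8 in shGFP. The c-ring genes had the lowest H1299 medians of the complex, -0.03 and -0.06, and the 4 peripheral stalk genes had medians of -0.11 and -0.04 in A549 and 0.13 and 0.05 in H1299.

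The small membrane subunits of complex V, which take part in dimers of the synthase, had the highest median difference between the lines of the roles in complex V, 0.36 log2 units. ATP5I (now ATP5ME), subunit e, stood at 171 and 161 in A549 shMETTL3, against 189.7 in shGFP. In H1299 it stood at 355 and 310.2 in shMETTL3, against 268 in shGFP. Both A549 libraries were below the control and both H1299 libraries above it. ATP5L (now ATP5MG), subunit g, stood at 357.5 and 370.3 in A549 shMETTL3, against 379 in shGFP, and at 342 and 252 in H1299 shMETTL3, against 235 in shGFP. ATP5L2, a near-identical copy with which ATP5L may share reads, stood at 37.1 and 35.9 in A549 shMETTL3, against 35 in shGFP, and at 30.4 and 24 in H1299 shMETTL3, against 20.2 in shGFP. ATP5J2 (now ATP5MF), subunit f, had changes of 0.01 in A549 and -0.04 in H1299.

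The 4 genes named after these families but not counted to a complex were ATP5S (now DMAC2L), ATP5SL (now DMAC2, an assembly factor of complex I) and the readthrough genes NDUFC2-KCTD14 and ATP5J2-PTCD1. ATP5SL stood at 98.6 and 109 in A549 shMETTL3, against 131 in shGFP, and at 113 and 121 in H1299 shMETTL3, against 123 in shGFP, lower in all 4 libraries (log2 over both lines -0.20, SE 0.14). ATP5S stood at 22.5 and 23.4 in A549 shMETTL3, against 21.1 in shGFP, and at 7.3 and 6.4 in H1299 shMETTL3, against 3.9 in shGFP, where the values are low. NDUFC2-KCTD14 had a change of 0.14 in H1299 and -0.03 in A549.

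**Figure D3:**
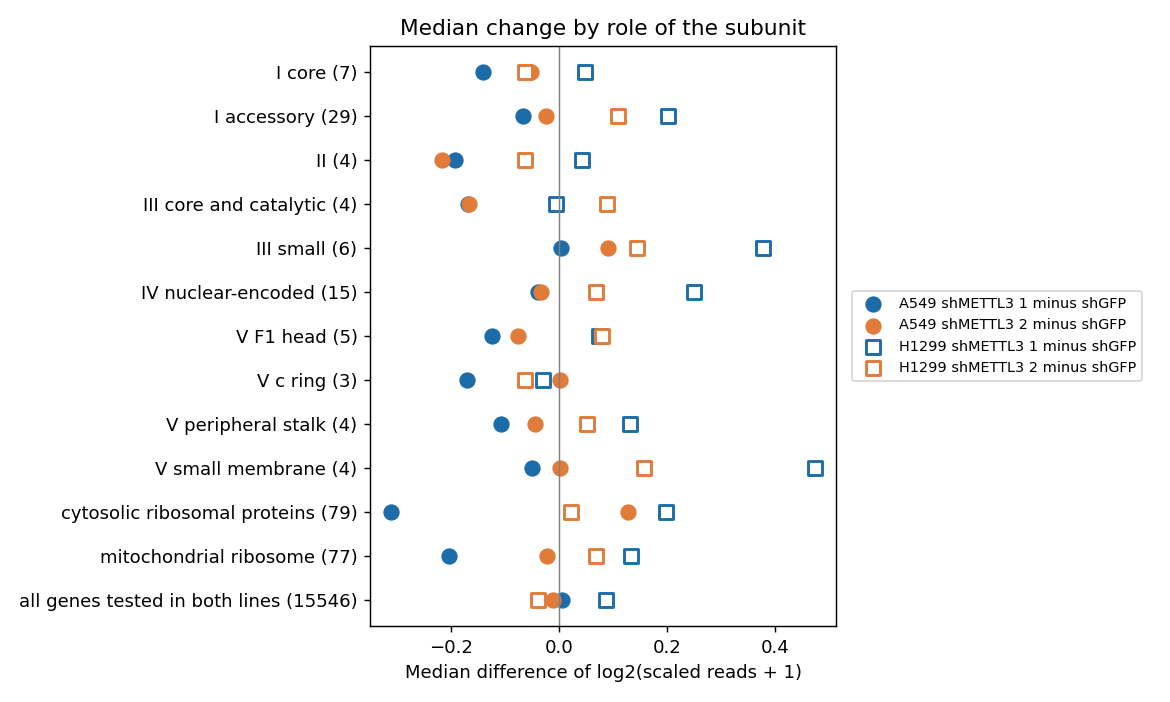
Median difference of log2(scaled reads + 1) between each shMETTL3 library and shGFP, by the role of the subunit, with 2 ribosomal protein lists and all genes tested in both lines for comparison (filled circles A549, open squares H1299; numbers in brackets are genes). The small membrane subunits of complex V and the small subunits of complex III have the highest medians in H1299 library 1, at 0.47 and 0.38, and cytosolic ribosomal proteins the lowest in A549 library 1, at -0.31.

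The interaction term asked whether the change differed between the lines. It was above 0, meaning a higher change in H1299 than in A549, for 73 of 85 members, against 53.4% of all genes, with a median of 0.18 log2 units against 0.02 over all genes. None of the 85 passed an adjusted p of 0.05 by limma and none had an unadjusted p under 0.05, while over all genes 0.0% passed and 0.315% had such a p. For members with a mean of at least 20 scaled reads in both lines, the 95% interval of the difference reached 0.68 to either side at the median. This is more than any of these differences. Highest among members with a mean of at least 20 scaled reads in both lines were NDUFB3 at 0.54 (95% interval -0.36 to 1.44), UQCR10 at 0.50 (-0.16 to 1.16), ATP5I at 0.50 (-0.18 to 1.18), NDUFB6 at 0.46 (-0.46 to 1.37) and NDUFA1 at 0.45 (-0.28 to 1.17). By complex the count above 0 was 29 of 36 in complex I, 2 of 4 in complex II, 10 of 10 in complex III, 14 of 15 in complex IV and 15 of 16 in complex V. Among the core subunits of complex I it was 3 of 7, with a median of 0.00. Other gene groups moved alongside: the interaction was above 0 for 71 of 77 mitochondrial ribosomal proteins (median 0.19) and for 76 of 79 cytosolic ribosomal proteins (median 0.21). Their part in the members' offset was not tested.

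**Figure D4:**
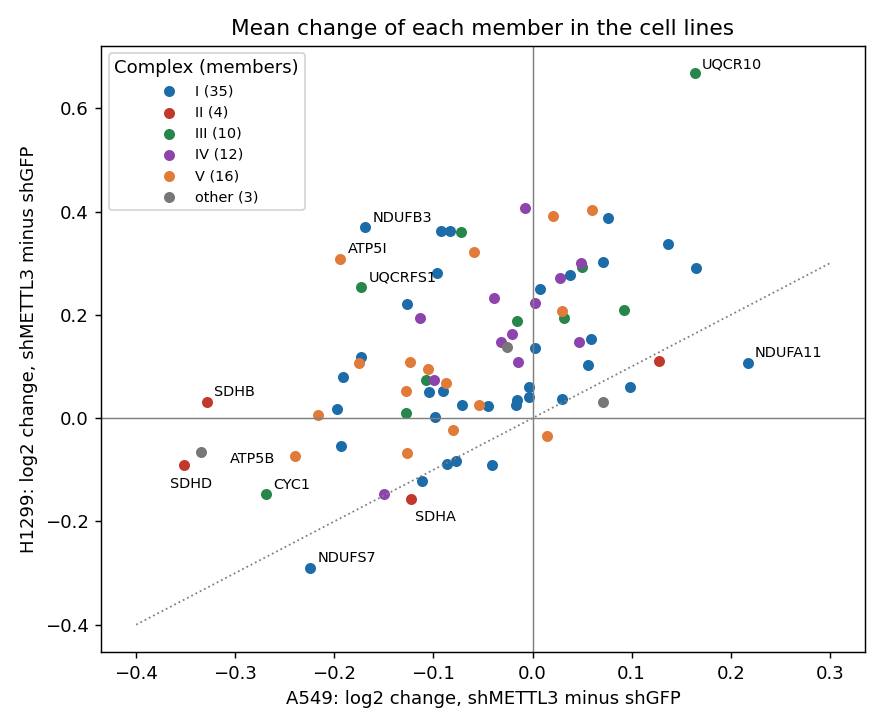
Log2 change by limma (shMETTL3 minus shGFP) in A549, on the x axis, and in H1299, on the y axis, for the 80 members with a mean of at least 20 scaled reads in both lines, coloured by complex. The dotted line marks equal changes, and most members lie above it, with changes of -0.35 to 0.22 in A549 and -0.29 to 0.67 in H1299.

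The knockdown libraries also differed from each other. Over both lines and all genes, number 2 against number 1 gave 257 calls, or 1.65% of 15546 genes, by limma, and 18.6% of genes had an unadjusted p under 0.05. Among the 85 members 0 passed, and 5 had an unadjusted p under 0.05, a share below that of all genes. These were COX7A2 (log2 -0.37, adjusted p = 0.147), NDUFA12 (0.36, adjusted p = 0.184), NDUFB4 (-0.28, adjusted p = 0.243), ATP5E (-0.37, adjusted p = 0.246) and NDUFS4 (-0.33, adjusted p = 0.250), all by limma. NDUFA12, an accessory subunit of the matrix arm, stood at 113 and 149.7 in A549 shMETTL3, against 149 in shGFP, and at 127 and 159 in H1299 shMETTL3, against 147.5 in shGFP. In both lines library 1 was the low one and library 2 lay just above the control. NDUFS4, an accessory subunit mutated in Leigh syndrome, stood at 295 and 261 in A549 shMETTL3, against 318 in shGFP, and at 106 and 75.8 in H1299 shMETTL3, against 88.6 in shGFP. Here library 2 was the low one in both lines, as it was for SDHD (log2 -0.36, 95% interval -0.75 to 0.03). In both lines number 2 was below number 1 for 29 members, against 37.8% of all genes, and above it for 20, against 20.7%. The median member difference was -0.04, and it was 0.05 with median centring and 0.01 when rescaled without RNA45S5, so that its sign rests on the scaling. Among the 257 genes called were FN1 and KRT8, both lower in number 2 than in number 1 (adjusted p = 0.0332 and 0.0461 by limma).

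Summed over the members, the share of scaled reads outside RNA45S5 was 0.985 and 1.01% in A549 shMETTL3 libraries 1 and 2, against 1.05% in shGFP. In H1299 it was 1.01 and 1.03% in shMETTL3, against 0.958% in shGFP. The sums are thus below the control in both A549 libraries and above it in both H1299 libraries. Complex V took 0.278 and 0.293% in A549 shMETTL3, against 0.315% in shGFP, much of it from ATP5B. Complex IV took 0.245 and 0.238% in H1299 shMETTL3, against 0.214% in shGFP.

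The other genes of the pathway were described in the same way, and no gene of these lists passed the test for shMETTL3 against shGFP in either line or in both together by limma. The 16 assembly factors of complex I had medians of -0.20 and 0.03 in A549 and 0.10 and -0.04 in H1299, with NDUFAF6 highest at 0.12 over both lines and ATP5SL, which is also a member, lowest at -0.20. The 24 assembly factors of complex IV had medians of -0.09 and 0.03 in A549 and 0.15 and 0.13 in H1299. SCO2, a copper chaperone of complex IV, was highest at a log2 change of 0.29 over both lines, with 17.5 and 34.4 in A549 shMETTL3, against 22.4 in shGFP, and 11.1 and 16.2 in H1299 shMETTL3, against 9.6 in shGFP. Among the 6 assembly factors of complex III, BCS1L, which inserts the Rieske protein, was lowest at -0.22 and TTC19 highest at 0.13. The inhibitor of the ATP synthase, ATPIF1, was the highest of the 4 complex V factors at 0.29, and ATPAF1, an assembly factor of the F1 head, the lowest at -0.08. The 4 assembly factors of complex II had medians of -0.09 and -0.02 in A549 and 0.22 and 0.20 in H1299.

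The 14 transcriptional regulators listed include TFAM, TFB1M, TFB2M, POLRMT, MTERF1 and MTERF3, which act on mitochondrial DNA and not on the members' genes. Of the 14, 7 were lower than shGFP in both A549 libraries and 0 higher in both, against 27.2% of all genes on either side. Their medians in A549 were -0.46 and -0.07. In H1299, 6 were lower and 1 higher, with medians of -0.08 and -0.04, against 24.5 and 30.6% of all genes. NRF1, for which a promoter motif was counted above, stood at 47.9 and 47.5 in A549 shMETTL3, against 49.2 in shGFP, and at 47.6 and 48.6 in H1299 shMETTL3, against 51.4 in shGFP. PPARGC1B, a coactivator of mitochondrial genes, was the lowest over both lines at a log2 change of -0.48, with 27.9 and 39.4 in A549 shMETTL3, against 57.6 in shGFP, and 45.6 and 74.4 in H1299 shMETTL3, against 66.5 in shGFP. GABPA, the DNA-binding subunit of GABP, was the highest at 0.13. TFAM, which packs and transcribes mitochondrial DNA, was higher in number 2 than in number 1 (log2 0.81, adjusted p = 0.0360 by limma), with 161 and 333 in A549 shMETTL3, against 257 in shGFP, and 92.7 and 138 in H1299 shMETTL3, against 128 in shGFP. Among 19 genes of mitochondrial import and structure, 16 were lower than shGFP in both A549 libraries and 1 higher, and in H1299 6 were lower and 5 higher, to be read against the same shares of all genes. TOMM20, an import receptor of the outer membrane, was the lowest of them at -0.47 over both lines, and HSPE1, a chaperonin of the matrix, the highest at 0.19. TOMM22, another import receptor, was also higher in number 2 than in number 1 (log2 0.63, adjusted p = 0.0461 by limma). The 16 citric acid cycle genes had medians of -0.05 and -0.06 in A549 and 0.06 and -0.06 in H1299, with DLST lowest at -0.34 and PDHB highest at 0.16. Of 7 genes of electron carriers, ubiquinone synthesis and the acyl carrier, COQ9 was highest at 0.11 and COQ7 lowest at -0.11 over both lines. Both are enzymes or factors of ubiquinone synthesis. The acyl carrier NDUFAB1, named for complex I but not a member, stood at 460.0 and 537 in A549 shMETTL3, against 567 in shGFP. In H1299 NDUFAB1 stood at 239 and 241 in shMETTL3, against 219 in shGFP. CYCS, cytochrome c itself, stood at 1945 and 2213 in A549 shMETTL3, against 2352 in shGFP, and at 552 and 510.0 in H1299 shMETTL3, against 514 in shGFP.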

How the data were processed

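Poly(A) RNA was sequenced with a stranded TruSeq kit, per the labels' protocols. TopHat, Bowtie and the hg19 build appear, without versions, in the submitters' processing notes. The deposited signal per gene was made by the authors by dividing each library's reads by a constant (2.8, 3.2 and 3.8 for A549 shMETTL3 1, shMETTL3 2 and shGFP, and 4.5, 5 and 5.1 for H1299 shMETTL3 1, shMETTL3 2 and shGFP). Multiplied back by it, 100% of values came out whole within their rounding. The basis of the constants, the read counter and its strand setting are not stated.

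Changes are differences of log2(value + 1), which understate those of low genes. Levels are not compared between genes, whose lengths differ, or between lines, whose tables were normalized separately. limma 3.58.1 in R 4.3.3 (lmFit, eBayes with an intensity trend) was fitted to all genes with a mean of at least 1, with Benjamini-Hochberg adjustment over all of them and a threshold of 0.05. Both-line fits had line as a term, leaving 3 residual degrees of freedom, or 2 with the interaction or the library number. With 1 shGFP library in each line, its spread is taken to be that of the knockdown libraries. edgeR 4.0.16 was run as an alternative on the A549 reads. The code was tested on simulated data.

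The members, lists and named genes were chosen with earlier results of these data known. Values are given for the SDH genes, isoform pairs, and, with a mean of at least 20, the extreme members of each complex and line, the 8 furthest each way over both lines on 1 side of shGFP in all 4 knockdown libraries, and the 5 with the largest differences between lines and between library numbers. Others are named by role. Alternatives were median centring, rescaling without RNA45S5, a minimum mean of 5 or 20 or no filter, a pseudocount of 0.1, eBayes without the trend, a fit of all 6 libraries for each line, a replicate block, and each knockdown library left out. Genes whose names had become dates, 27 in A549 and 25 in H1299, were not named. The m6A peak lists were not used, since no annotation of their build was at hand.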

Additional observations from a re-analysis of the deposited data

Results flagged for a closer look

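The median change of the members was below 0 in both A549 shMETTL3 libraries and above 0 in both H1299 shMETTL3 libraries, over all members and within complexes I, IV and V. For complex IV the A549 side rests on the scaling, since its limma median of -0.02 became 0.0057 when values were rescaled without RNA45S5. The median difference, H1299 minus A549, was 0.18 log2 units over all members, 0.13 over complex I, 0.22 over complex IV and 0.19 over complex V. These medians were not tested. Below shGFP in both A549 libraries and above it in both H1299 libraries were 18 members, of which the 8 with the largest differences were NDUFB3 at 0.54, ATP5I at 0.50, NDUFA5 at 0.46, NDUFB6 at 0.46, NDUFA1 at 0.45, UQCRFS1 at 0.43, ATP5L at 0.38 and SDHB at 0.36. The interaction term of limma tested each of them and none passed, with an adjusted p of 1 for each.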

How the results depend on the processing

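In the alternatives run for each comparison, 0 members passed. This says little about stability, since 0 of all genes passed in 4 of the 5 comparisons and METTL3 itself, at -1.27 over both lines, had an adjusted p of 0.139 by limma. In H1299 the median member change of 0.11 was 0.079 without library 1 and 0.19 without library 2, so that library 1 makes it larger. The number of members lower in all 4 knockdown libraries was 6 when values were rescaled without RNA45S5, against 10 as reported. The share of all genes under that scaling is not given here. In H1299, SDHB turned to -0.0076 with median centring, and SDHD was 0.19 without library 2 and -0.37 without library 1. The cause was not tested. With the library number as a replicate block, 0 members passed, and the median change stayed at 0.04 over both lines and 0.18 for the difference between lines. The 2 numbers deviated together across lines (Pearson r = 0.24 over 15546 genes, which are not independent replicates), but with 2 pairs this does not pair the libraries. edgeR was not run beyond A549, because the H1299 values carry a single decimal, which leaves recovered reads less certain, and the m6A peaks over members were not run. Depth limits members with few reads, such as COX7A1 and NDUFA4L2. The single control library of each line also limits what can be detected.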

Other observations

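COX7B2, a form of a complex IV subunit known from testis, was listed for H1299 alone and so was not a member. It stood at 28.9 and 24.6 scaled reads in H1299 shMETTL3 libraries 1 and 2, against 19.4 in shGFP, above the control in both libraries.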
